A study of Mus musculus with 50 samples.

Results

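Fam126b, D10Bwg1379e, Med13l and Tmem100 gave, among array clones with a gene name, the largest expression differences between non-stressed DBA/2J and C57BL/6J mice in the PVN (the hypothalamic paraventricular nucleus), apart from Camk2n1. They were chosen on that contrast as 4 lead spots of a mouse cDNA array, and every other clone of the array with the same name was added. This gave 8 clones, of 22824 non-control clones in all: 3 of Fam126b, 1 of D10Bwg1379e, 2 of Med13l and 2 of Tmem100. The lead clone is called clone 1 of its gene. DBA/2J and C57BL/6J are inbred strains that differ in how strongly they react to stress, and the PVN governs the hormonal stress response.

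The mice were single-housed males of 3 to 5 months. DBA/2J mice either swam for 5 min and were killed 4 h or 8 h later or were killed without stress, and C57BL/6J mice were treated in the same 3 ways, which gave 6 conditions. The PVN and the tissue next to it were punched out, the RNA of 6 animals per condition was pooled and amplified in 2 rounds, and the pools were compared on 50 two-colour arrays. Each array held a pair of pools, one labelled with Cy5 and one with Cy3, and each of 5 comparisons had 10 arrays, 5 in each dye orientation: DBA/2J against C57BL/6J without stress, and stressed against non-stressed mice at 4 h and at 8 h in each strain. Arrays of one comparison are repeat hybridisations of the same pools, so SDs and p-values over arrays cover labelling and hybridisation and not the spread between animals. The tests of 4 stressed pools below take the 4 h and 8 h pools of a strain as its replicates. Their error therefore mixes the spread between pools with time after swimming. Fewer cells of a type cannot be told apart from less RNA per cell.

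Fam126b belongs to the hyccin family, whose proteins sit in the complex that holds phosphatidylinositol 4-kinase at the plasma membrane, where it makes the lipid PI4P. D10Bwg1379e is an older symbol of Arfgef3, a relative of the large exchange factors that switch on Arf GTPases in membrane traffic. Med13l is a subunit of the kinase module of Mediator, the complex that links transcription factors to RNA polymerase II. Tmem100 is a small membrane protein that endothelial cells make downstream of BMP9 and the receptor ALK1 (Acvrl1). In the mouse build GRCm38.p6 the annotation places Fam126b at chr1:58522806-58586333, Arfgef3 at chr10:18588011-18743758, Med13l at chr5:118560330-118765438 and Tmem100 at chr11:90030348-90036508. The clone called D10Bwg1379e carries only the name of an uncharacterised expressed sequence on the array, and its gene name is the one the study gives it.

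The 250 bases upstream of the annotated starts of Fam126b and Arfgef3 are shown because the lead clones of these genes had the same direction as each other on the strain arrays and between the pools of the strains on the stress arrays. Both are on the minus strand, at chr1:58586334-58586583 and chr10:18743759-18744008 of GRCm38.p6, and were read from RefSeq. Capitals mark a CCAAT box, searched as CCAAT on both strands.
Fam126b: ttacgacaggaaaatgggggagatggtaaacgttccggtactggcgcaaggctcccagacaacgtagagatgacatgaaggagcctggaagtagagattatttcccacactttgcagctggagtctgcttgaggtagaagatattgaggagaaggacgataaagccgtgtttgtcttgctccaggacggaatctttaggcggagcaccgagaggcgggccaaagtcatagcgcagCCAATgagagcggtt
Arfgef3: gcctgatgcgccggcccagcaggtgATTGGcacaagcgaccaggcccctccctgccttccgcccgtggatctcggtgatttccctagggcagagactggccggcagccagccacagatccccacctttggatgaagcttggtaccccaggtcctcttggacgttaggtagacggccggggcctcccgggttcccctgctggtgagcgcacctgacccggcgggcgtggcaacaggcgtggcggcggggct
Each window held 1 match, which began 15 bases before the start in Fam126b (position -15) and at position -225 in Arfgef3, where it lies on the other strand. Of 32851 windows of the same length, 33.8% held this motif. Neither window held TGACG, a cAMP response element core found in 17.8% of the windows, AGAACA, a glucocorticoid receptor core element found in 16.1%, or CACGTG, an E-box found in 6.02%.

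The arrays were noisy, and the strain arrays and the stress arrays disagreed on the direction of the strain difference. Log2 ratios of replicate arrays of one comparison, over all clones and turned the same way, correlated by only -0.11 to 0.18, and the median standard error of a clone was 0.16 to 0.19 on the log2 scale. Of 6 PVN markers looked for, Avp, Oxt and Trh were on the array, with 1 clone each. The Trh clone lay between the 72.8th and 86.1st percentile of all clones in the 10 pool and array-set combinations, the Avp clone between the 23.3rd and 91.8th, and the Oxt clone between the 6.78th and 23.2nd. For all 4 lead clones the strain difference on the 10 strain arrays had the opposite direction to the one between the strains on the 40 stress arrays. The strain arrays are therefore described by their dye labels, as the channel labelled DBA/2J and the channel labelled C57BL/6J, and ratios are labelled DBA/2J over labelled C57BL/6J. With the sign turned, each of these ratios keeps its size and changes its direction. The signs printed by the study run opposite to those of the labelled dyes.

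On the strain arrays the channel labelled DBA/2J was far brighter at the lead clones of Fam126b and D10Bwg1379e and dimmer at those of Med13l and Tmem100. These values chose the clones, so they are given without a test. Fam126b clone 1 ranked first of 22824 clones, with log2 ratios between 2.15 and 3.42 (median 2.87) and a mean of 2.88 ± 0.37 (SD, 10 arrays). D10Bwg1379e ranked second, between 1.52 and 2.99 (median 2.30), with a mean of 2.29 ± 0.40. Med13l clone 1 lay between -3.00 and -1.23 (median -1.84), with a mean of -1.95 ± 0.51, at rank 22822. Tmem100 clone 1 lay between -2.12 and -1.18 (median -1.73), with a mean of -1.72 ± 0.38, at rank 22819. Every array thus agreed in direction for all 4 lead clones.

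Neither dye orientation nor scan day changed the direction of these ratios. Fam126b clone 1 averaged 2.78 on the 5 arrays with the labelled DBA/2J pool in Cy5 and 2.98 on the 5 with it in Cy3. The same means were 2.44 and 2.13 for D10Bwg1379e, -2.02 and -1.88 for Med13l clone 1 and -1.65 and -1.78 for Tmem100 clone 1. The strain arrays were scanned on 2 days, 7 arrays on one and 3 on the other, and all 3 had the labelled DBA/2J pool in Cy3. The means within the days were 2.81 and 3.04 for Fam126b clone 1, 2.27 and 2.32 for D10Bwg1379e, -1.95 and -1.96 for Med13l clone 1, and -1.57 and -2.06 for Tmem100 clone 1.

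**Figure D1:**
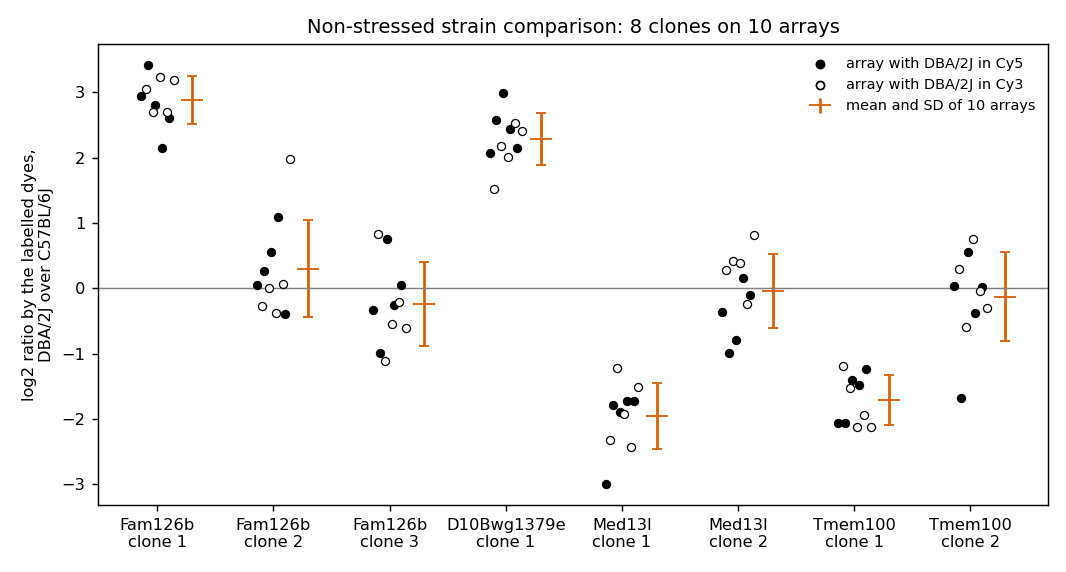
Log2 ratios (labelled DBA/2J over labelled C57BL/6J) of the 8 clones on the 10 arrays of non-stressed mice. Filled points are arrays with the labelled DBA/2J pool in Cy5, open points arrays with it in Cy3, and bars give the mean and SD of 10 arrays. The 4 lead clones lie wholly on one side of 0, between 1.52 and 3.42 or between -3.00 and -1.18, while the other 4 clones straddle it.

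The other clones of these genes had ratios on both sides of 0. Fam126b clone 2 averaged 0.30 ± 0.74 (SD, 10 arrays) and clone 3 averaged -0.24 ± 0.65, with arrays on both sides of 0. Med13l clone 2 averaged -0.04 ± 0.57 and Tmem100 clone 2 averaged -0.13 ± 0.68, each above 0 on 5 arrays of 10. Over all 50 arrays, clones of one name correlated with each other by -0.10 to 0.21. Of the 8 clones, 4 were thus past a 1.41-fold difference on the strain arrays, where 7.79% of all clones were past it, and the rule chose those 4. Such disagreement was common on this array: among 20 other names with more than 1 clone and a called clone of at least 2-fold, 12 had no second clone past 1.41-fold and 5 had every other clone past it.

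Light at empty spots shows which of these clones were measured. A clone was taken as above background on an array where its log2 level exceeded the 95th percentile of the empty spots in that channel, which averaged 9.97 on the strain arrays. The share of all clones that passed it there ranged between 10.3% and 27.5%, so most clones of the array did not pass. Fam126b clone 1 passed this on 10 arrays in the channel labelled DBA/2J and on 0 in the channel labelled C57BL/6J, so the difference is a bound, at least 1.48-fold. D10Bwg1379e passed on 10 and 0 arrays in the same order of channels, at least 1.53-fold. Med13l clone 1 passed on 9 arrays in the channel labelled DBA/2J and on 10 in the one labelled C57BL/6J, and Tmem100 clone 1 on 2 and 10. Fam126b clones 2 and 3 and Tmem100 clone 2 were not above background in either channel on any strain array. Med13l clone 2 passed on 1 array in the channel labelled DBA/2J and on 0 in the other, so these 4 clones carry no fold.

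Just outside the chosen clones, among those with a gene symbol, were Mrps18c (log2 ratio 1.40) and Ext2 (1.36) on the side where the labelled DBA/2J channel was brighter, and Fads1 (-1.60) and Cldn12 (-1.53) on the other. The 3 clones of Camk2n1, an inhibitor of CaM kinase II that was left out by the rule, stood at -1.75, -2.40 and -1.90, and a clone without a gene symbol stood at -3.14. In all, 826 of 22824 clones (3.62%) passed an adjusted p of 0.05 by limma together with a 1.41-fold difference on these arrays. Marker clones of other cell types were among them. The labelled DBA/2J channel was brighter at 4 of 18 astrocyte clones, all of Glul (0.85 to 1.22), at 4 oligodendrocyte clones of Mbp (0.64 to 1.10), and at 2 of 5 blood clones, both of Hbb-b1 (0.77 and 1.05). It was dimmer at the oligodendrocyte clones of Cnp (-1.05) and Mobp (-0.89). Of 12 thalamus clones, 2 were brighter and 2 dimmer. None of 16 endothelial clones passed, and their summed log2 level was 12.5 in the channel labelled DBA/2J and 12.4 in the channel labelled C57BL/6J. The part of these cell types in the lead clones' differences was not tested.

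By the labelled dyes, the stressed pools of the strains give the same measure in material that the rule did not use. With the dyes turned, the channels labelled as stressed would hold non-stressed pools, the conditions that the rule used. The 4 h and 8 h values of a strain would then be repeat measures of 1 non-stressed pool. The tests of 4 pools below would in that case have no replicate pool in either strain. The direction of the dyes was not tested. On a stress array both channels hold 1 strain, so a strain's level there does not depend on which dye held which pool. In the stressed pools Fam126b clone 1 stood at a log2 level of 7.42 (4 h) and 7.22 (8 h) in DBA/2J mice, against 10.88 (4 h) and 10.50 (8 h) in C57BL/6J mice. D10Bwg1379e stood at 7.91 (4 h) and 7.53 (8 h) in DBA/2J mice, against 11.25 (4 h) and 10.59 (8 h) in C57BL/6J mice. Both clones were therefore lower in the DBA/2J pools, whereas the channel labelled DBA/2J had been the brighter one on the strain arrays. Med13l clone 1 stood at 12.74 (4 h) and 12.51 (8 h) in DBA/2J mice, against 10.80 (4 h) and 10.57 (8 h) in C57BL/6J mice. Tmem100 clone 1 stood at 11.00 (4 h) and 10.76 (8 h) in DBA/2J mice, against 9.66 (4 h) and 9.73 (8 h) in C57BL/6J mice. These clones were higher in the DBA/2J pools, again the reverse of the strain arrays.

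As differences of measured light, DBA/2J minus C57BL/6J stressed pools gave -3.37 for Fam126b clone 1 (95% confidence interval -4.14 to -2.60), -3.20 for D10Bwg1379e (-4.12 to -2.28), 1.94 for Med13l clone 1 (1.20 to 2.68) and 1.19 for Tmem100 clone 1 (0.46 to 1.91). For the first pair the DBA/2J side was not above the empty spots on any array, so only the bounds given with the detection below stand as fold changes. With 4 pools, 2 a strain, none of the 8 clones passed limma's test over all clones (adjusted p = 0.30, 0.30, 0.38 and 0.90 for the lead clones in that order), and 0% of all 22824 clones did. At an unadjusted p under 0.05 there were 4 of the 8 clones, the lead ones, and 3.69% of all clones. The exact permutation test of 2 against 2 pools reached its smallest possible two-sided p, 0.333, for the 4 lead clones. The pools of the strains did not overlap for 4 of the 8 clones, and for 32.5% of all clones. With all 40 arrays fitted and the pool as a random block, limma called 3 of the 8 clones (4.31% of all clones). Its adjusted p was 5.7e-10 for Fam126b clone 1, 4.1e-08 for D10Bwg1379e and 0.00022 for Med13l clone 1. Tmem100 clone 1 was not called (adjusted p = 0.10). That fit counts repeat hybridisations of 4 pools as replicates of a strain, so its p-values do not measure the spread between animals.

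Single arrays showed the same separation. In the stressed channel of 20 DBA/2J arrays Fam126b clone 1 ranged between 6.13 and 8.65 (median 7.31), against 9.92 to 11.49 (median 10.84) on 20 C57BL/6J arrays. D10Bwg1379e ranged between 6.04 and 8.67 (median 7.97) on DBA/2J arrays, against 9.83 to 11.71 (median 10.95) on C57BL/6J arrays. Med13l clone 1 ranged between 11.79 and 13.45 (median 12.61) on DBA/2J arrays, against 9.58 to 11.78 (median 10.75) on C57BL/6J arrays. The ranges of the strains lay apart for these 3 clones, narrowly for Med13l clone 1 (11.79 against 11.78). How many of all clones had ranges apart was not counted, and the arrays repeat 2 pools a strain. The ranges overlapped for Tmem100 clone 1, at 10.41 to 11.50 (median 10.76) on DBA/2J arrays and 8.85 to 13.01 (median 9.50) on C57BL/6J arrays.

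Detection had the order of the levels for Fam126b clone 1 and D10Bwg1379e. In stressed DBA/2J pools Fam126b clone 1 was above the empty spots on 0 of 20 arrays, against 19 of 20 in stressed C57BL/6J pools, and D10Bwg1379e on 0 of 20 arrays, against 20 of 20. DBA/2J was thus at least 1.30-fold lower for Fam126b clone 1 and at least 1.53-fold lower for D10Bwg1379e. These bounds are low because the 95th percentile of the empty spots averaged 9.51 on the DBA/2J 4 h arrays and 10.97 on the DBA/2J 8 h arrays. That percentile averaged 8.12 on the C57BL/6J 4 h arrays and 9.37 on the C57BL/6J 8 h arrays. Detection counts of the strains thus rest on unlike cut-offs. Med13l clone 1 was above the empty spots on 20 of 20 DBA/2J arrays and on 19 of 20 C57BL/6J arrays. Tmem100 clone 1 was above them on 10 of 20 DBA/2J arrays and on 18 of 20 C57BL/6J arrays, although its level was higher in DBA/2J pools.

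**Figure D2:**
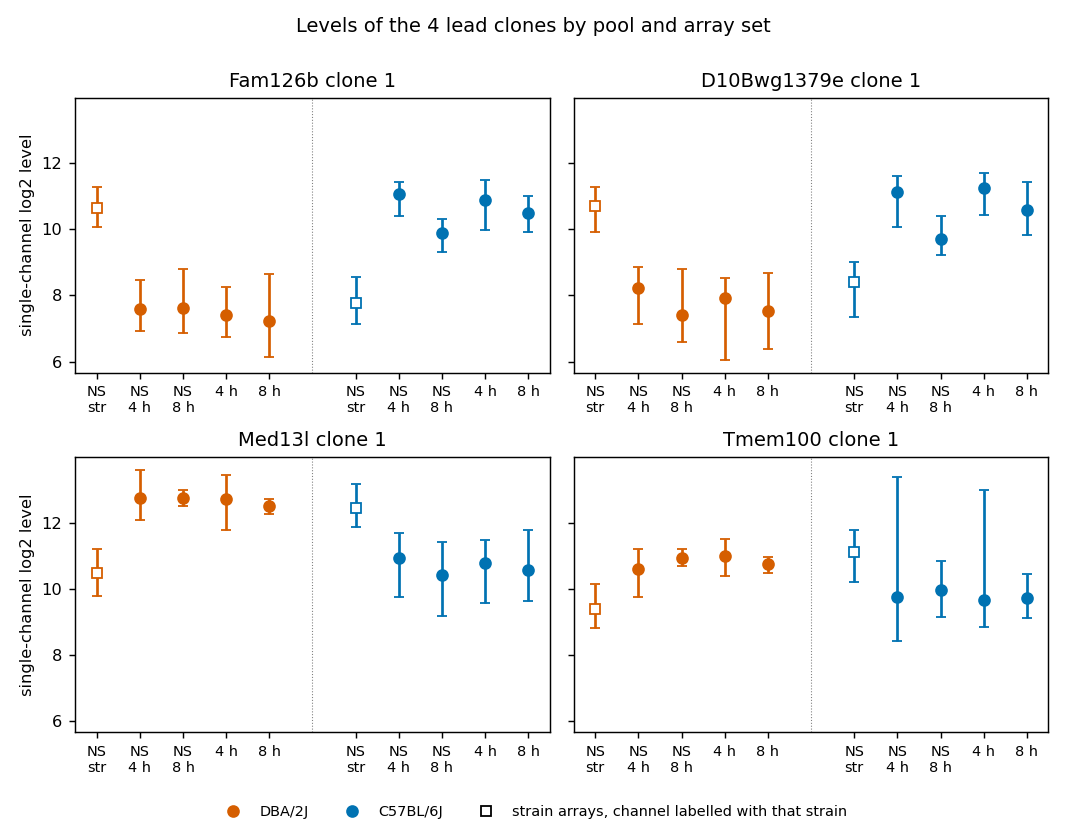
Single-channel log2 level of the 4 lead clones in DBA/2J pools (left of the dotted line) and C57BL/6J pools (right of it). Points are means of 10 arrays and bars run from the lowest to the highest array, NS str is the non-stressed pool on the strain arrays by its dye label, NS 4 h and NS 8 h are the non-stressed pool on the 4 h and 8 h arrays, and 4 h and 8 h are the stressed pools. Open squares, such as 10.66 for Fam126b clone 1 in the channel labelled DBA/2J, lie near the filled points of the other strain.

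The non-stressed pools on these 40 arrays had the order of the stressed ones. Fam126b clone 1 stood at 7.60 and 7.63 in the DBA/2J non-stressed pool on the 4 h and 8 h arrays, against 11.07 and 9.89 in the C57BL/6J one. DBA/2J minus C57BL/6J averaged -2.86 for Fam126b clone 1, -2.60 for D10Bwg1379e, 2.09 for Med13l clone 1 and 0.92 for Tmem100 clone 1. The DBA/2J non-stressed pool was not above the empty spots on any of these arrays for the first pair, so their differences are bounds, at least 1.24-fold lower in DBA/2J for Fam126b clone 1 and at least 1.19-fold lower for D10Bwg1379e. On the strain arrays, pools of the same 2 conditions gave 10.66 (labelled DBA/2J) and 7.78 (labelled C57BL/6J) for Fam126b clone 1, 10.71 and 8.42 for D10Bwg1379e, 10.50 and 12.45 for Med13l clone 1, and 9.41 and 11.12 for Tmem100 clone 1. One condition, non-stressed DBA/2J, thus had levels of 10.66 and 7.60 for the same Fam126b clone, depending on the arrays. Levels set across arrays had their own error. The C57BL/6J non-stressed pool differed between 8 h and 4 h arrays by -1.42 at D10Bwg1379e and by -1.17 at Fam126b clone 1, and the median absolute shift over all clones was 0.39 in C57BL/6J and 0.34 in DBA/2J. Which set of labels names the strains correctly cannot be told apart from these levels alone.

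The reversal went beyond these genes. Across all 22824 clones, the labelled ratio of the strain arrays and the stressed-pool difference correlated by -0.18 (Pearson), and across the 826 clones called on the strain arrays by -0.51. Of those 826 clones, 172 (20.8%) had the same sign in both measures. Among the 112 of at least 2-fold on the strain arrays the correlation was -0.75, and 14 clones (12.5%) had the same sign. Clones share arrays and pools and are not independent replicates, so these values describe the arrays and carry no p. Medians of the marker lists between stressed DBA/2J and C57BL/6J pools were -0.13 for astrocytes, 0.01 for oligodendrocytes, 0.02 for endothelial cells, 0.12 for thalamus and -0.75 for blood, beside -0.03 for all clones. The 3 PVN clones had a median of 0.16 and lay between -0.12 and 1.57. No marker clone was called, in a test that called 0% of all clones and recovered 0% of simulated log2 changes up to 1.5. The summed level of the PVN clones was 10.4 (4 h) and 11.3 (8 h) in stressed DBA/2J pools, against 10.8 (4 h) and 9.77 (8 h) in stressed C57BL/6J pools. The part of PVN content in the lead clones' differences was not tested. The summed endothelial level was 12.6 (4 h) and 12.6 (8 h) in stressed DBA/2J pools, against 12.7 (4 h) and 12.4 (8 h) in stressed C57BL/6J pools. The summed blood level was 11.6 (4 h) and 11.4 (8 h) in DBA/2J pools, against 12.4 (4 h) and 11.8 (8 h) in C57BL/6J pools, and its part in the lead clones' differences was not tested.

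**Figure D3:**
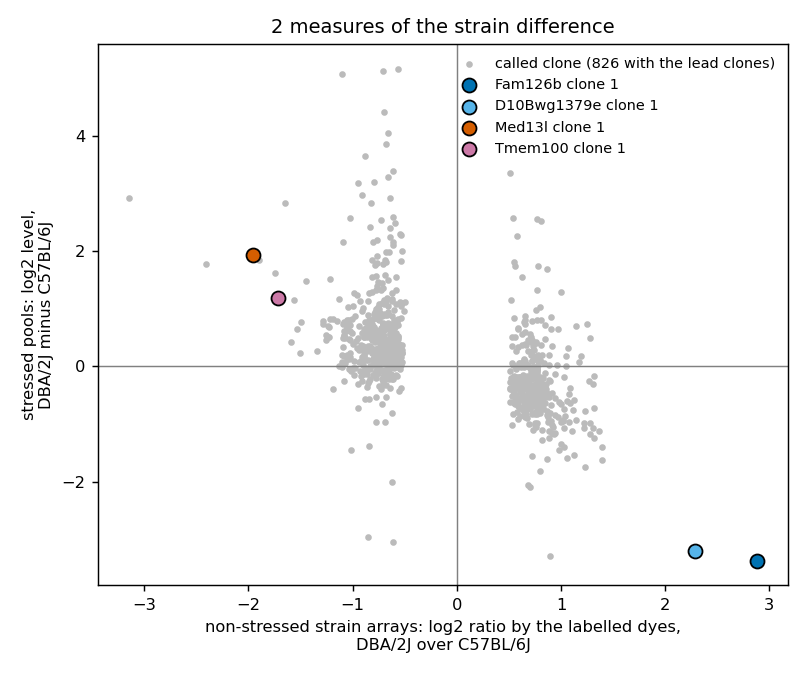
Log2 ratio on the strain arrays (labelled DBA/2J over labelled C57BL/6J, x axis) against the log2 level of stressed DBA/2J minus stressed C57BL/6J pools (y axis) for the 826 clones called on the strain arrays. Grey points are single clones and coloured points the 4 lead clones, which lie at opposite corners (2.88 and -3.37 for Fam126b clone 1, -1.95 and 1.94 for Med13l clone 1).

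For the other clones of the 4 genes the stressed pools were mostly not above the empty spots. Fam126b clones 2 and 3 passed them on 0 of 20 DBA/2J arrays and 1 of 20 C57BL/6J arrays each, Tmem100 clone 2 on 2 and 7, and Med13l clone 2 on 1 and 10, so a gap between the strains could have gone unmeasured there. The measured difference was 0.20 for Fam126b clone 2, -0.19 for Fam126b clone 3, 0.63 for Med13l clone 2 and 0.21 for Tmem100 clone 2, each with a confidence interval that included 0. The stressed pools overlapped for all 4 clones. A pair of further clones is named for Arfgef3 itself. They averaged 0.94 ± 0.53 and 0.46 ± 0.39 on the strain arrays (SD, 10 arrays) and differed by -0.54 (95% confidence interval -1.24 to 0.16) and 0.12 (-0.75 to 0.99) between stressed pools, against -3.20 for the D10Bwg1379e clone.

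The stress comparisons asked which genes changed 4 h and 8 h after forced swimming, and their ratios, stressed over non-stressed, rest on the labelled dyes, whose direction was not tested. With the sign turned, each stress ratio and each difference between responses below keeps its size and changes its direction. Of the 8 clones, 1 passed limma's adjusted p of 0.05 with a 1.41-fold difference: D10Bwg1379e in C57BL/6J mice 8 h after swimming, a comparison in which 0.0832% of all clones passed. Its log2 ratios lay between 0.35 and 1.38 (median 0.96), above 0 on 10 of 10 arrays, and the fitted value was 0.88 (SE 0.13, adjusted p = 0.028), or 1.84-fold. It was measured on these arrays, above the empty spots on 10 arrays in the stressed pool and on 8 in the non-stressed pool. The stressed pool stood at 10.59 and the non-stressed pool at 9.71, which was itself below its level on the 4 h arrays (11.14). The 10 arrays were scanned on 2 days, with means of 0.83 on 4 arrays, all with the stressed pool in Cy5, and 0.92 on 6, and with the day as a random block the value was 0.88 (adjusted p = 0.0094). The call depended on single arrays: leaving out any 1 of 9 arrays ended it (adjusted p up to 0.12), and leaving out replicate 3 kept it (adjusted p = 0.025). It also ended when only the 5 arrays of one dye orientation were used (adjusted p = 0.26 where Cy5 held the stressed pool and 0.14 where Cy3 did) and without the 2 arrays whose files hold a local background at most spots (0.29).

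Fam126b clone 1 lay above 0 on the same 10 arrays, between 0.15 and 1.20 (median 0.69). Its fitted value of 0.61 (SE 0.13) did not pass in limma's test (adjusted p = 0.13). Med13l clone 1 (0.16) and Tmem100 clone 1 (-0.25) had arrays on both sides of 0, and 3 of the 8 clones had an unadjusted p under 0.05 (9.28% of all clones). At 4 h in C57BL/6J mice, where 0.289% of all clones passed, none of the 8 did, with values between -0.50 and 0.14, and 2 of them had an unadjusted p under 0.05 (12.3% of all clones). Here D10Bwg1379e stood at 0.11 (95% confidence interval -0.09 to 0.31) and Fam126b clone 1 at -0.19 (-0.39 to 0.01).

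In DBA/2J mice no clone of the 4 genes passed at 4 h or at 8 h (0.153% and 0.158% of all clones), and 1 of the 8 had an unadjusted p under 0.05 at each time (10.7% and 12% of all clones). Neither channel was above the empty spots for Fam126b clone 1 or D10Bwg1379e on any DBA/2J stress array, so their DBA/2J responses have no fold. Tmem100 clone 1 at 4 h ranged between -0.24 and 1.04 (median 0.40), with a fitted value of 0.39 (95% confidence interval 0.11 to 0.67, adjusted p by limma = 0.29). Its mean was 0.63 where Cy5 carried the stressed pool and 0.15 where Cy3 did. On the 2 scan days it averaged 0.49 on 8 arrays and -0.02 on 2. Med13l clone 1 at 8 h lay below 0 on all 10 arrays, between -0.50 and -0.07 (median -0.20), with a fitted value of -0.26 (95% confidence interval -0.43 to -0.08, adjusted p by limma = 0.24). By the labelled dyes, marker clones also passed limma's test in these comparisons, Trh at 4 h with a log2 ratio of -0.75 (adjusted p = 0.031) and the thalamus marker Tcf7l2 at 8 h with -0.52 (adjusted p = 0.047), and their part in the values of Tmem100 and Med13l was not tested.

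**Figure D4:**
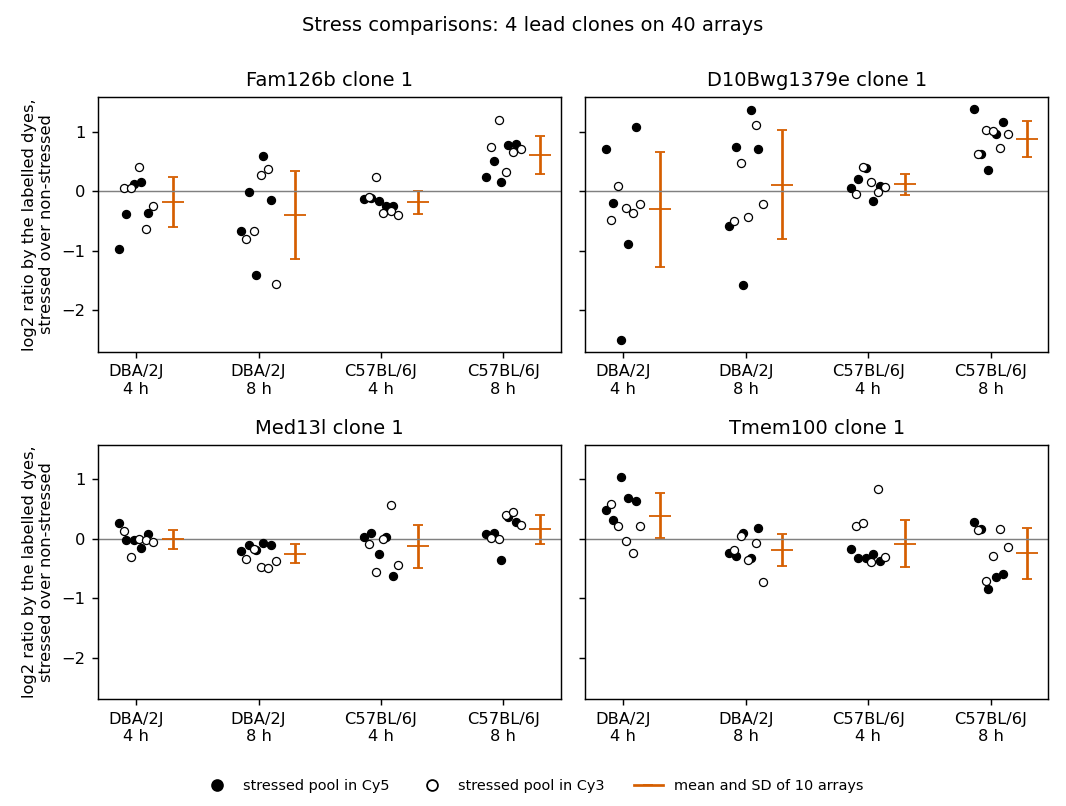
Log2 ratios (stressed over non-stressed, by the labelled dyes) of the 4 lead clones on the 10 arrays of each stress comparison. Filled points are arrays whose stressed pool was labelled with Cy5, open points arrays where it was labelled with Cy3, and bars give the mean and SD. In C57BL/6J mice at 8 h the points of D10Bwg1379e (0.35 to 1.38) and Fam126b clone 1 (0.15 to 1.20) all lie above 0.

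Differences between responses were tested directly. By the labelled dyes, the response of C57BL/6J mice at 8 h exceeded that at 4 h for 2 of the 8 clones, where 0.495% of all clones passed: by 0.80 for Fam126b clone 1 (SE 0.15, adjusted p by limma = 0.011) and by 0.77 for D10Bwg1379e (SE 0.15, adjusted p = 0.018). Both values rest on the same 20 arrays and the same non-stressed pool. The level of that pool on the 8 h arrays minus the 4 h arrays was -1.17 for Fam126b clone 1 and -1.42 for D10Bwg1379e. The stressed pools were not higher at 8 h than at 4 h. They stood at 10.50 against 10.88 for Fam126b clone 1 and at 10.59 against 11.25 for D10Bwg1379e. The part of the shift of the non-stressed pool in these values was not tested. Without the 2 C57BL/6J 8 h arrays whose files hold a local background at most spots, Fam126b clone 1 kept its call (0.88, adjusted p = 0.020) and D10Bwg1379e lost it (0.77, adjusted p = 0.060). Med13l clone 2, at 0.61 (adjusted p = 0.17), and the other 5 clones did not pass.

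The remaining differences called none of the 8 clones. DBA/2J minus C57BL/6J at 8 h, where 0.6% of all clones passed, gave -1.01 for Fam126b clone 1 (SE 0.26, adjusted p by limma = 0.090), -0.77 for D10Bwg1379e (adjusted p = 0.36) and -0.41 for Med13l clone 1 (adjusted p = 0.19), and 3 of the 8 clones had an unadjusted p under 0.05 (10.4% of all clones). For the first pair the DBA/2J part came from spots not above the empty spots. Without replicate 4 of the DBA/2J 8 h arrays Fam126b clone 1 reached -1.13 (adjusted p = 0.047), the lowest adjusted p of its alternatives, which reached up to 0.19. The same difference at 4 h, where 2.34% of all clones passed, was 0.47 for Tmem100 clone 1 (adjusted p = 0.17) and 0.01 for Fam126b clone 1 (95% confidence interval -0.35 to 0.36). In DBA/2J mice, 8 h minus 4 h (1% of all clones) gave -0.58 for Tmem100 clone 1 (adjusted p = 0.078). On the DBA/2J 8 h arrays, where the cut-off of the empty spots averaged 10.97, this clone passed it on 0 of 10 arrays in the stressed pool. It passed on 5 in the non-stressed pool. The second clone named for Arfgef3 differed between the strains at 4 h by 0.66 (adjusted p = 0.043), where D10Bwg1379e gave -0.42 (adjusted p = 0.61).

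Genes of the same pathways were counted without the 8 clones, so the Arf list keeps the pair of clones named for Arfgef3. On the strain arrays the list counts below stand beside 3.62% of all clones called. Of 31 clones for 15 genes of the Arf GTPases and their exchange factors, 4 were called on the strain arrays, Arfgef1 at -1.23 and -0.89, Arfgef3 at 0.94 and Arf4 at 0.80, and the list's median was 0.00 beside 0.01 for all clones. Both Arfgef1 clones, which encode an exchange factor of the same family, passed in C57BL/6J mice at 4 h, with log2 ratios by the labelled dyes of -1.07 and -0.91 (adjusted p by limma = 0.0014 and 0.0025). Their response at 8 h minus that at 4 h in C57BL/6J mice was 1.20 and 0.91 (adjusted p = 0.00022 and 0.013). In DBA/2J mice their difference of 8 h minus 4 h was -0.89 and -0.86 (adjusted p = 0.011 and 0.011). The strains differed at 4 h by 1.62 and 1.33 (adjusted p = 3.4e-05 and 5.9e-05).

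Of 28 Mediator clones for 18 genes, Med29 (0.55) and Med23 (-0.73) passed on the strain arrays, and none passed in a stress comparison or a difference of responses. Of 42 clones for 21 genes of phosphoinositide kinases, phosphatases and their partners, 1 passed, Pip5k1c at -0.76 on the strain arrays. Its enzyme makes PI(4,5)P2 from PI4P, the product of the kinase that Fam126b helps to anchor. Of 33 clones for 20 genes of BMP and ALK1 signalling, 3 passed on the strain arrays, a pair of clones of the BMP target Id2 at 0.88 and 0.71 and the signal transducer Smad1 at 0.68. Id4, another BMP target, differed between the strains at 4 h by 0.79 (adjusted p by limma = 0.0024) and between 8 h and 4 h in DBA/2J mice by -0.80 (adjusted p = 0.0070). None of these lists had a called clone between the stressed pools in limma's test of 4 pools. That test called 0% of all clones and recovered 0% of simulated log2 changes up to 1.5, so it says nothing about these lists.

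Likeness was taken over all 50 arrays, which include the 10 strain arrays that chose the lead clones, so the rule in part sets it and it is a description. The pair of Fam126b clone 1 and D10Bwg1379e correlated by 0.81 (Pearson, log2 ratios by the labelled dyes) and Med13l clone 1 and Tmem100 clone 1 by 0.82, but over the 40 stress arrays alone by 0.47 and 0.24. Among 6955 clones with a gene symbol, the one most like Fam126b was Pgm2l1, an enzyme that makes glucose 1,6-bisphosphate (0.84), followed by clones of Glul, glutamine synthetase (0.83 and 0.80). D10Bwg1379e went with the Wnt pathway transcription factor Tcf7l2 (0.77) and with Glul (0.75 and 0.72). Med13l went with Camk2n1 (0.88 and 0.85) and with the fatty acid desaturase Fads1 (0.86). Tmem100 went with Camk2n1 (0.82), the sorting nexin Snx32 (0.80) and Tmem65 (0.78). Over the 40 stress arrays these same closest matches stood at 0.40 for Fam126b and Pgm2l1, 0.48 for D10Bwg1379e and Tcf7l2, 0.13 for Med13l and Camk2n1, and 0.02 for Tmem100 and Camk2n1. The closest matches over those 40 arrays alone, named after their values were seen, were Nfia for Fam126b (0.69), Glul for D10Bwg1379e (0.53), Rpl36al for Med13l (0.66) and Coq10b for Tmem100 (0.61). The points share arrays and pools, and for each of the 4 lead clones the ratios of the 10 strain arrays lay beyond those of all 40 stress arrays.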

How the data were processed

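The deposited scanner files held the authors' fixed-circle spot intensity for Cy5 and Cy3 (QuantArray), without normalization. The deposited processed tables held the authors' normalized log2 ratio per spot, used as an alternative; their scale matched (r of 0.88 to 0.97 with the labelled ratios), while their centring is unknown. The median intensity of an array lay between 135 and 295 for Cy5 and between 218 and 491 for Cy3, and the number of arrays limits precision. Here 1368 control spots were left out, background was corrected by normexp (offset 50), arrays were normalized by loess, and ratios were turned by the labelled dyes. On 4 arrays the first channel was Cy3. limma 3.58.1 in R 4.3.3 was fitted per comparison with dye orientation, with Benjamini-Hochberg adjustment over 22824 clones. A call needed an adjusted p under 0.05 and a fold of 1.41, of which only the fold follows the methods. Single-channel levels used Aquantile, and each stressed pool was averaged. Symbols of 6962 clones came from RefSeq (6161), the study's tables (633) or by hand (168). Named genes were every clone of the 4 genes, the next 2 clones on each side, the 3 most alike clones and the called clones of each list, at most 4. Members and lists were chosen with earlier results of these data known. Tests recovered 52 to 64% of simulated log2 changes of 1 in the comparisons and 0% of changes up to 1.5 with 4 pools. Of the marker genes, 1 is not reported here.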

Additional observations from a re-analysis of the deposited data

Results flagged for a closer look

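Fam126b clone 1 in C57BL/6J mice at 4 h had 1 array, replicate 7, far from the others, with a log2 ratio of 0.24 where the next highest was -0.10 (gap of 0.53 of the whole range). Tmem100 clone 2 in DBA/2J mice at 8 h had replicate 1 at -2.48, where the next lowest was -0.25 (gap of 0.61 of the range), and this clone was not above the empty spots there. Such a gap is met by chance in about 1 of 20 groups, and 40 groups of 10 arrays were looked at. In C57BL/6J mice the stress response differed between 8 h and 4 h by 0.80 for Fam126b clone 1 and by 0.77 for D10Bwg1379e, by limma's test of the difference. The level of the shared non-stressed pool also differed between the 8 h and 4 h arrays, by -1.17 and -1.42 in the same order of clones. For all 4 lead clones the strain arrays and the stress arrays gave opposite strain directions, for example 2.88 and -3.37 for Fam126b clone 1, a difference between array sets that was not tested.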

How the results depend on the processing

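All alternatives kept the direction of the 4 lead clones on the strain arrays and between stressed pools. On the strain arrays Fam126b clone 1 moved to 3.32 without background subtraction and to 3.39 with the authors' processed values. Of the 8 clones, the count called in C57BL/6J mice at 8 h (1) was 0 with the stressed pool in Cy5 alone, in Cy3 alone, after averaging the 5 arrays per orientation, and without the 2 arrays with local background in their files (an alternative chosen after seeing the data), 2 by the methods' t-test after Benjamini-Hochberg adjustment, which added Fam126b clone 1, and 0 to 1 with 1 array left out. The adjusted p of D10Bwg1379e there ranged between 0.0075 and 1.00. For 8 h minus 4 h in C57BL/6J mice (2), the replicate number as a block called 0 (adjusted p = 0.11 and 0.19), and leaving out the arrays with local background called 1. Same-numbered arrays correlated by -0.02 to 0.02, with none of the 10 pairs over 0.1 in any difference, so they share only a number; in no other difference did the block change the count. For 8 h minus 4 h in DBA/2J mice (0), the processed values called 1, Tmem100 clone 1 (adjusted p = 0.045), and for DBA/2J minus C57BL/6J at 8 h (0), leaving out 1 array called 0 to 1. Tmem100 clone 1 was above the empty spots on 0 of 10 DBA/2J 8 h arrays in the stressed pool. Stressed pools called 3 of the 8 with the pool as a random block, a fit that counts repeat arrays as replicates of a strain. Counts over all clones moved more, over the alternatives run: 826 on the strain arrays became 35 to 1212; in C57BL/6J mice 66 at 4 h became 0 to 103, 19 at 8 h became 1 to 55 and 113 for their difference became 15 to 145; in DBA/2J mice 35 at 4 h became 0 to 290, 36 at 8 h became 0 to 132 and 229 for their difference became 0 to 348; between the strains 535 at 4 h became 127 to 653 and 137 at 8 h became 30 to 158. The replicate block gave the lowest count in each difference. Values near 0 changed sign. Fam126b clone 1, DBA/2J minus C57BL/6J at 4 h, was -0.032 without background subtraction and -0.054 to 0.091 with 1 array left out. Med13l clone 1 in DBA/2J mice at 4 h was 0.090 with print-tip loess, 0.081 in the processed values, 0.023 in Cy5 alone and -0.044 to 0.017 with 1 array left out. Tmem100 clone 1 in C57BL/6J mice at 4 h was 0.12 in Cy3 alone. With 1 array left out, D10Bwg1379e in DBA/2J mice at 8 h was -0.046 to 0.32 and Tmem100 clone 1, DBA/2J minus C57BL/6J at 8 h, -0.0093 to 0.13. Between stressed pools, Tmem100 clone 2 was -0.078 in Cy3 alone and -0.0088 without the DBA/2J 4 h pool, Fam126b clone 3 was 0.15 without the C57BL/6J 4 h pool and 0.11 without the DBA/2J 8 h pool, and Fam126b clone 2 was -0.058 without the DBA/2J 4 h pool and -0.10 in the non-stressed pools. Likeness over the stress arrays alone fell to 0.40, 0.48, 0.13 and 0.024 for the closest clones of Fam126b, D10Bwg1379e, Med13l and Tmem100. The cause of these changes was not tested. Clones below the empty spots limit what their ratios can show.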
